A study of Mus musculus with 6 samples.

Results

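Cebpa, Cebpb, Cebpd, Cebpe, Cebpg, Spi1, Irf8 and Klf4 are genes of the C/EBP family, PU.1, IRF8 and KLF4. They include genes of factors that set the myeloid fate of blood cells. All were followed in mouse leukaemia cultures grown from different cells of origin. They were chosen by name and found as 8 of the 33924 gene rows of the count table, Spi1 under its older symbol Sfpi1. RNA had been sequenced from 3 LSK-derived and 3 GMP-derived leukaemia cultures. LSK cells lack lineage markers, carry Sca-1 and Kit and include the blood stem cells, and GMP are granulocyte-macrophage progenitors. Both groups carried the same oncogene, MLL-AF9, brought in by a retrovirus. The transformed GFP+ cells of both groups had been expanded in culture, given to lethally irradiated C57BL/6 mice together with wild-type support marrow, recovered from the marrow of moribund recipients and kept with SCF, IL-3 and IL-6. The ages of the mice are not stated, nor whether the cells were sorted again after recovery. The series title asks how the cell of origin bears on apoptotic priming and on the response to LSD1 inhibition. No untransformed cells and no inhibitor-treated culture are among the libraries, so every comparison sets LSK-derived against GMP-derived cultures. Libraries are called by the numbers in their titles, LSK 44, LSK 45 and LSK 46 and GMP 5, GMP 11 and GMP 19. Nothing says that they came from separate transductions, clones or mice, so p-values measure the spread among these cultures, part of which may be technical.

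C/EBP proteins are basic leucine zipper factors that bind DNA as dimers. C/EBP alpha is needed for the step to the granulocyte-macrophage progenitor, C/EBP beta for emergency granulopoiesis and C/EBP epsilon for late granulocyte maturation, while C/EBP gamma lacks an activation domain of its own. PU.1, an ETS factor, is needed for the myeloid lineages. IRF8, which binds DNA with partners such as PU.1, directs monocyte and dendritic cell fate away from the granulocyte, and KLF4, a zinc finger factor, acts in monocyte differentiation. The start of MLL-AF9 leukaemia is known to depend on C/EBP alpha.

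Sequences upstream of 3 C/EBP genes are shown because Cebpa and Cebpb were called between the groups and Cebpg, which lies near Cebpa on chromosome 7, was not. Each is the 250 bases before the start given by RefSeq on GRCm38.p6, a later build than the mm9 named for the counts. They lie at chr7:35119043-35119292 on the plus strand for Cebpa, chr2:167688665-167688914 on the plus strand for Cebpb and chr7:35056567-35056816 on the minus strand for Cebpg. Capitals mark the motif matches described after the sequences.
Cebpa: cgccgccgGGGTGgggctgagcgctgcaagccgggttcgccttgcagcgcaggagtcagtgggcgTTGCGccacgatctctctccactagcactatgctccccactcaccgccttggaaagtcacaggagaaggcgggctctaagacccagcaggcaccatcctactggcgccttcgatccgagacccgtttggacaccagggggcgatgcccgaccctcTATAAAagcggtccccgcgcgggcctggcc
Cebpb: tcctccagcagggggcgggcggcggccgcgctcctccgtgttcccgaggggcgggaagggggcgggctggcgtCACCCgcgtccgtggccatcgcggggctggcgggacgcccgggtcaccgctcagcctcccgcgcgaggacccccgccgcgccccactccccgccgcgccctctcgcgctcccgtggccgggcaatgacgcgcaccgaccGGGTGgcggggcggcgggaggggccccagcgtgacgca
Cebpg: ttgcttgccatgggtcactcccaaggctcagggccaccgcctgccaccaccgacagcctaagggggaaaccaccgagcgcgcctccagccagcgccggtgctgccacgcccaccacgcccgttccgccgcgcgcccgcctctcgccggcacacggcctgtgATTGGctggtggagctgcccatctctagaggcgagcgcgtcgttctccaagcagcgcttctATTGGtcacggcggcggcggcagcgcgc
Searched on both strands were the C/EBP site TTNNGNAA, the C/EBP half-site TTGCG, the PU.1 core GAGGAA, the KLF core CACCC, the TATA box TATAAA and the CCAAT box CCAAT. The half-site, TATA and CCAAT searches were added after the sequences had been seen. Cebpa held a TATA box 30 bases before its start, and so did the first of the 2 RefSeq starts of Irf8, at 31 bases, but not the second. Of 32851 windows of this length, 12.4% held one. A C/EBP half-site lay 185 bases before the Cebpa start, and 14.5% of windows held one. The KLF core matched at 1 place in the Cebpa window and 2 in the Cebpb window, and in 52.0% of all windows. Cebpg held 2 CCAAT boxes on the opposite strand, 89 and 28 bases before its start, and 33.8% of windows held at least 1. The C/EBP site (36.8% of windows), the PU.1 core (23.3%) and the ETS-IRF composite (2.30%) had no match in these 3 windows. G and C made up 66.4% of the Cebpa window, 81.6% of the Cebpb window and 70.8% of the Cebpg window, against a median of 52.4% over all windows.

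Total counts ran from 16640929 to 25628145 in LSK-derived and from 24411366 to 33885428 in GMP-derived libraries. Levels are CPM, counts scaled to a common library total with edgeR's TMM factors. The libraries carried the RNA of myeloid cells, since all 9 pan-myeloid markers were tested and summed to 2046 to 3199.8 CPM in LSK-derived and 1949 to 5053 CPM in GMP-derived libraries. Markers of LSK cells (8 listed, 5 tested) summed to 521 to 656 CPM in LSK-derived and 164 to 378 CPM in GMP-derived libraries. Lymphoid markers were low. Those of B cells (7 listed, 2 tested) summed to 14.8 to 22.1 CPM in LSK-derived and 3.89 to 8.79 CPM in GMP-derived libraries, with Ms4a1 and Pax5 at 0. Those of T and NK cells (8 listed, 1 tested) summed to 0.484 to 1.22 CPM in LSK-derived and 0.119 to 0.147 CPM in GMP-derived libraries, with Cd3e, Trbc2 and Ncr1 at 0.

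Cebpa and Cebpb were lower in the LSK-derived leukaemias, and the other members were not called. A gene was called where the quasi-likelihood test of edgeR gave a Benjamini-Hochberg adjusted p under 0.05. Of the 7 members with enough counts to be tested, 2 were called, both lower and none higher, a share close to the 25.7% of all tested genes (11.8% higher and 13.9% lower). At an unadjusted p under 0.05, 0 of the 7 were higher, and DESeq2 called 0 higher. Cebpe was called higher in 2 of 12 alternative fits, described below. The groups did not overlap for 2 of the 7, against 45.4% of all tested genes. The median log2 fold change (LSK-derived minus GMP-derived) of the 7 was -0.47 and that of all tested genes 0.01. In bulk RNA, fewer cells that express a gene and less RNA per cell cannot be told apart.

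Cebpa, the factor of the progenitor step, read 87.8, 127 and 85.3 CPM in LSK 44, 45 and 46 and 179.6, 171 and 184 CPM in GMP 5, 11 and 19. The GMP-derived values lay close together and above every LSK-derived one, of which LSK 45 was the highest. The difference was called (log2 fold change -0.83 ± 0.16, edgeR adjusted p = 0.0112; the SE is approximate) and held in all 12 alternative fits, with adjusted p up to 0.0473. Cebpb, the factor of emergency granulopoiesis, read 10.8, 8.36 and 8.62 CPM in LSK 44, 45 and 46 and 19.2, 27.3 and 29.1 CPM in GMP 5, 11 and 19. Here too the groups did not overlap, and GMP 5 was the GMP-derived library nearest to the LSK-derived ones. Cebpb had the largest fold change among the tested members (log2 fold change -1.45 ± 0.19, edgeR adjusted p = 0.00308) and was called in all 12 alternatives.

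Cebpe, the late granulocyte factor, read 44.6, 36.1 and 33.9 CPM in LSK 44, 45 and 46 and 16.8, 20.8 and 36.2 CPM in GMP 5, 11 and 19. GMP 5 and GMP 11 lay below every LSK-derived library, while GMP 19 lay within their range. Cebpe was not called (log2 fold change 0.63 ± 0.29, edgeR adjusted p = 0.159). Without GMP 19 it was (1.02, edgeR adjusted p = 0.0132), as it was by limma voom with sample weights (0.74, adjusted p = 0.0456). Cebpd, a family member induced in inflammation, read 8.23, 9.26 and 6.54 CPM in LSK 44, 45 and 46 and 7.09, 10.3 and 16.4 CPM in GMP 5, 11 and 19. GMP 19 was the highest, GMP 11 also lay above every LSK-derived library, and GMP 5 lay within their range. Cebpd was not called (log2 fold change -0.50 ± 0.31, edgeR adjusted p = 0.283), and its log2 fold change was -0.12 without GMP 19. Cebpg, the partner without an activation domain, read 91.0, 92.3 and 93.2 CPM in LSK 44, 45 and 46 and 93.3, 84.3 and 89.5 CPM in GMP 5, 11 and 19. These 6 values lay within a narrow band, and the groups overlapped. Its difference was not called (log2 fold change 0.05 ± 0.06, edgeR adjusted p = 0.6001) and ran from 0.01 to 0.08 over the alternatives.

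For PU.1, IRF8 and KLF4 the groups overlapped. Spi1 read 116, 132 and 107 CPM in LSK 44, 45 and 46 and 126, 161 and 202 CPM in GMP 5, 11 and 19. GMP 11 and GMP 19 lay above every LSK-derived library and GMP 5 within their range. Spi1 was not called (log2 fold change -0.47 ± 0.18, edgeR adjusted p = 0.0982). It was called without GMP 5 (-0.63, edgeR adjusted p = 0.0238), by DESeq2 (-0.47, adjusted p = 0.0355) and by limma voom with sample weights (-0.49, adjusted p = 0.0335). Irf8 read 75.7, 84.1 and 51.3 CPM in LSK 44, 45 and 46 and 33.9, 88.0 and 99.3 CPM in GMP 5, 11 and 19. The lowest library, GMP 5, and the highest, GMP 19, were of the same group. Irf8 was not called (log2 fold change -0.07 ± 0.40, edgeR adjusted p = 0.917), and its log2 fold change was -0.42 without GMP 5, 0.21 without GMP 19, 0.12 without LSK 46 and 0.07 without GMP 11. Klf4 had 7, 5 and 6 counts in LSK 44, 45 and 46 and 0, 11 and 16 counts in GMP 5, 11 and 19, too few to be tested. These were 0.423, 0.196 and 0.250 CPM in LSK 44, 45 and 46 and 0, 0.327 and 0.469 CPM in GMP 5, 11 and 19, where 0 counts in GMP 5 allow up to 0.123 CPM (3 counts, for counting error only). At this depth no difference in Klf4 was detectable, and with no filter on low counts its log2 fold change was -0.01 (edgeR adjusted p = 0.995).

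**Figure D1:**
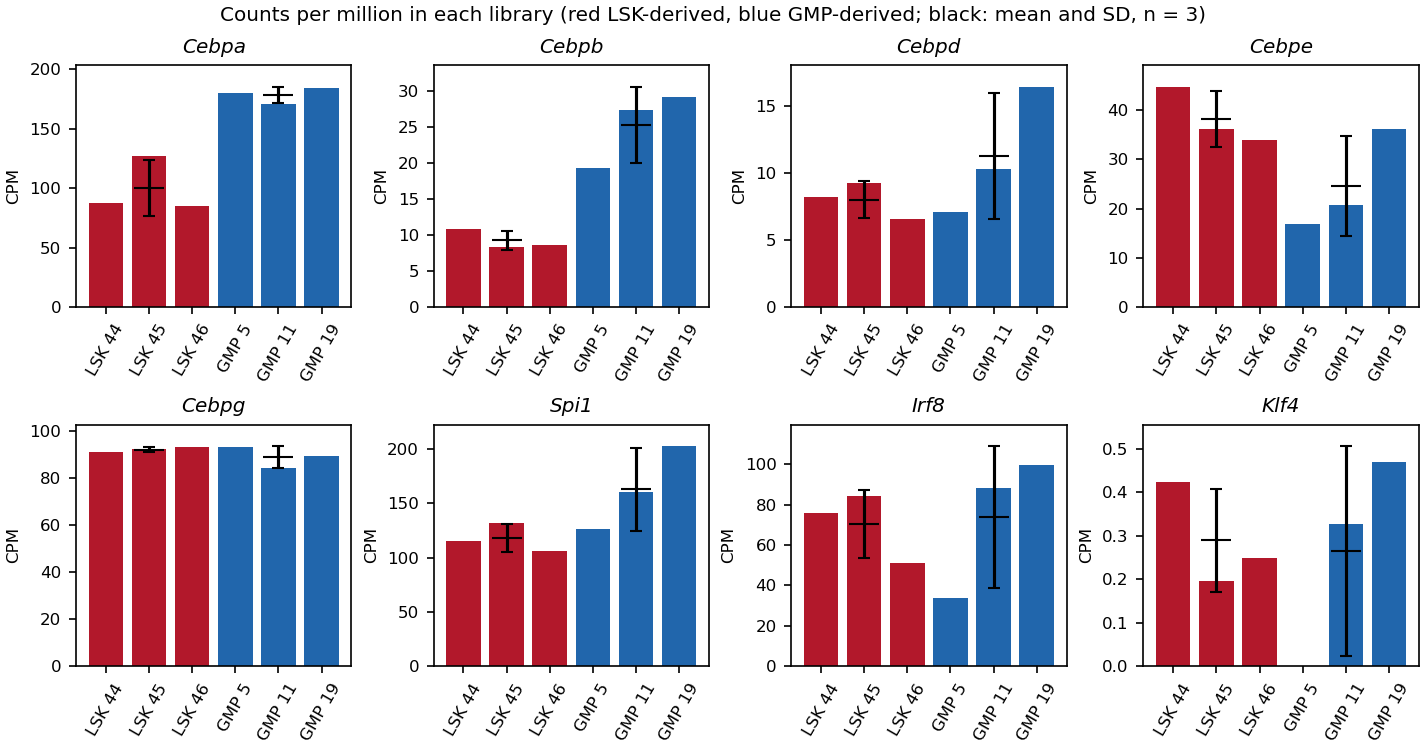
CPM (vertical axis, from 0) of the 8 genes in each library (horizontal axis), LSK-derived in red and GMP-derived in blue, with the mean and SD of 3 libraries in black. The bars of Cebpa and Cebpb do not overlap between groups, those of Cebpg lie between 84.3 and 93.3 CPM, and Irf8 is lowest in GMP 5 at 33.9 CPM.

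Per kilobase of transcript, Spi1 had the highest and Klf4 the lowest level of the 8 genes in both groups. These levels are CPM divided by the length of the longest GENCODE M21 transcript, so they can be set beside each other between genes. The LSK-derived order was Spi1 at 58.1 ± 6.38, Cebpa at 38.1 ± 8.91, Cebpe at 30.8 ± 4.55, Irf8 at 20.3 ± 4.91, Cebpg at 19.6 ± 0.228, Cebpb at 6.15 ± 0.878, Cebpd at 2.14 ± 0.367 and Klf4 at 0.0957 ± 0.0392 CPM per kilobase (SD, n = 3). Among neighbours in it, the ranges of Cebpa and Cebpe overlapped, as did those of Irf8 and Cebpg, and the other pairs were separate. The GMP-derived order was Spi1 at 80.1 ± 18.8, Cebpa at 67.8 ± 2.54, Irf8 at 21.3 ± 10.1, Cebpe at 19.8 ± 8.23, Cebpg at 18.9 ± 0.956, Cebpb at 16.8 ± 3.50, Cebpd at 3.01 ± 1.26 and Klf4 at 0.0876 ± 0.0794 CPM per kilobase (SD, n = 3). There the ranges of Spi1 and Cebpa overlapped, as did those of each pair of neighbours from Irf8 through Cebpe and Cebpg to Cebpb. Several places rest on the length used. With the median transcript length the LSK-derived order of the first 5 was Spi1 at 204, Cebpg at 73.0, Irf8 at 54.8, Cebpa at 41.8 and Cebpe at 30.8 CPM per kilobase, so that Cebpg and Irf8 passed Cebpa and Cebpe. The GMP-derived order was then Spi1 at 282, Cebpa at 74.4, Cebpg at 70.5, Irf8 at 57.4 and Cebpe at 19.8 CPM per kilobase. Spi1 stayed first and Cebpb, Cebpd and Klf4 last, in that order, with either length.

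**Figure D2:**
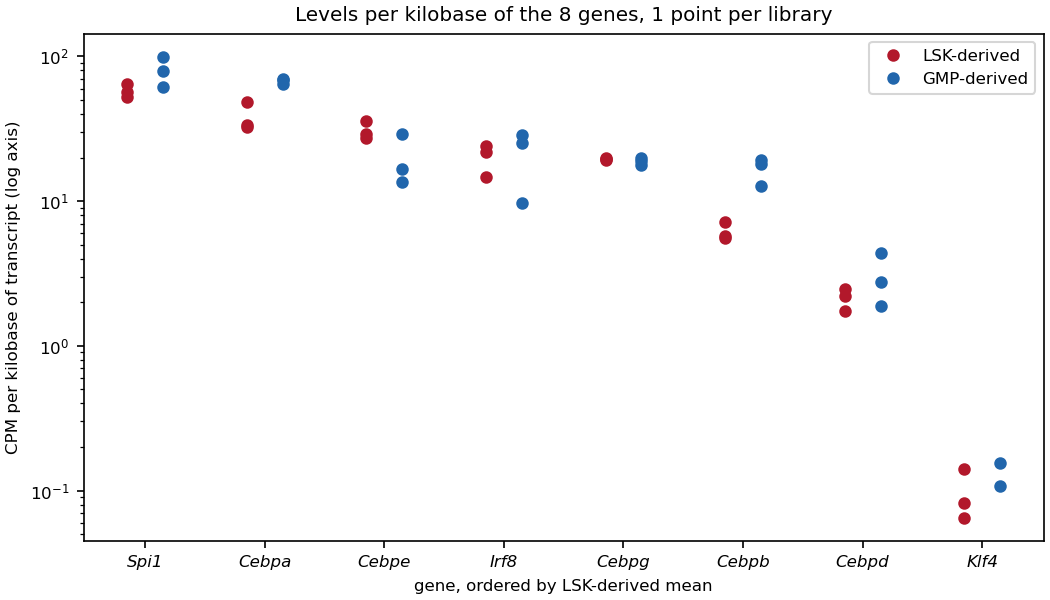
Level per kilobase of transcript (vertical axis, logarithmic) of each gene (horizontal axis, by LSK-derived mean), 1 point for each library, LSK-derived in red and GMP-derived in blue. The points of Cebpa and Cebpb are apart between groups, and the GMP 5 point of Klf4, at 0, is not drawn.

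The shares of the 5 C/EBP genes in their summed level per kilobase were set side by side, without a test. The sum was 98.1, 105 and 87.1 CPM per kilobase in LSK 44, 45 and 46 and 116, 121 and 142 CPM per kilobase in GMP 5, 11 and 19. Every LSK-derived sum was below every GMP-derived one. Cebpa made up 39.1% ± 6.17 over the LSK-derived and 54.0% ± 4.70 over the GMP-derived libraries (SD, n = 3 each). The share of Cebpb was 6.39% ± 1.02 over the LSK-derived and 13.2% ± 2.07 over the GMP-derived libraries. Cebpe held 31.9% ± 4.50 over the LSK-derived and 15.4% ± 4.63 over the GMP-derived libraries. Cebpg held 20.4% ± 2.11 over the LSK-derived and 15.1% ± 1.82 over the GMP-derived libraries, and Cebpd 2.20% ± 0.177 over the LSK-derived and 2.33% ± 0.730 over the GMP-derived libraries. Within a library, a larger share of one gene makes the others smaller. All shares depend on the length used. With the median transcript length, Cebpg held 47.1% in LSK-derived and 37.9% in GMP-derived libraries, Cebpa 26.7% in LSK-derived and 39.9% in GMP-derived libraries, Cebpe 19.8% in LSK-derived and 10.4% in GMP-derived libraries, Cebpb 3.96% in LSK-derived and 8.95% in GMP-derived libraries and Cebpd 2.45% in LSK-derived and 2.84% in GMP-derived libraries. The order of the groups for each gene was the same with both lengths.

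The balance between members was compared as 8 ratios of CPM, in which transcript length is the same on both sides of the comparison. Cebpe to Cebpa stood at 0.508, 0.285 and 0.398 in LSK 44, 45 and 46 and 0.0938, 0.122 and 0.197 in GMP 5, 11 and 19. Each LSK-derived ratio was above each GMP-derived one, with a log2 difference of 1.53. Cebpg to Cebpa was 1.04, 0.726 and 1.09 in LSK 44, 45 and 46 and 0.519, 0.494 and 0.487 in GMP 5, 11 and 19. The groups were again apart, by 0.90 on the log2 scale. Cebpa to Irf8 was 1.16, 1.51 and 1.66 in LSK 44, 45 and 46 and 5.30, 1.94 and 1.85 in GMP 5, 11 and 19. All LSK-derived ratios were lower, with GMP 5 far above the rest, and the log2 difference of -0.89 was -0.41 without GMP 5. Each of these 3 had an exact two-sided permutation p = 0.1, the smallest that 3 libraries against 3 allow, and 0.267 adjusted over the 8 ratios. They share Cebpa, whose own difference enters each of them. Cebpa to Spi1 was 0.760, 0.961 and 0.801 in LSK 44, 45 and 46 and 1.43, 1.06 and 0.909 in GMP 5, 11 and 19. These values overlapped, with a log2 difference of -0.41 (exact two-sided permutation p = 0.2). Spi1 to Irf8, Cebpb to Cebpa, Cebpd to Cebpa and Klf4 to Irf8 overlapped too, and the last rested on too few Klf4 counts to be read.

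**Figure D3:**
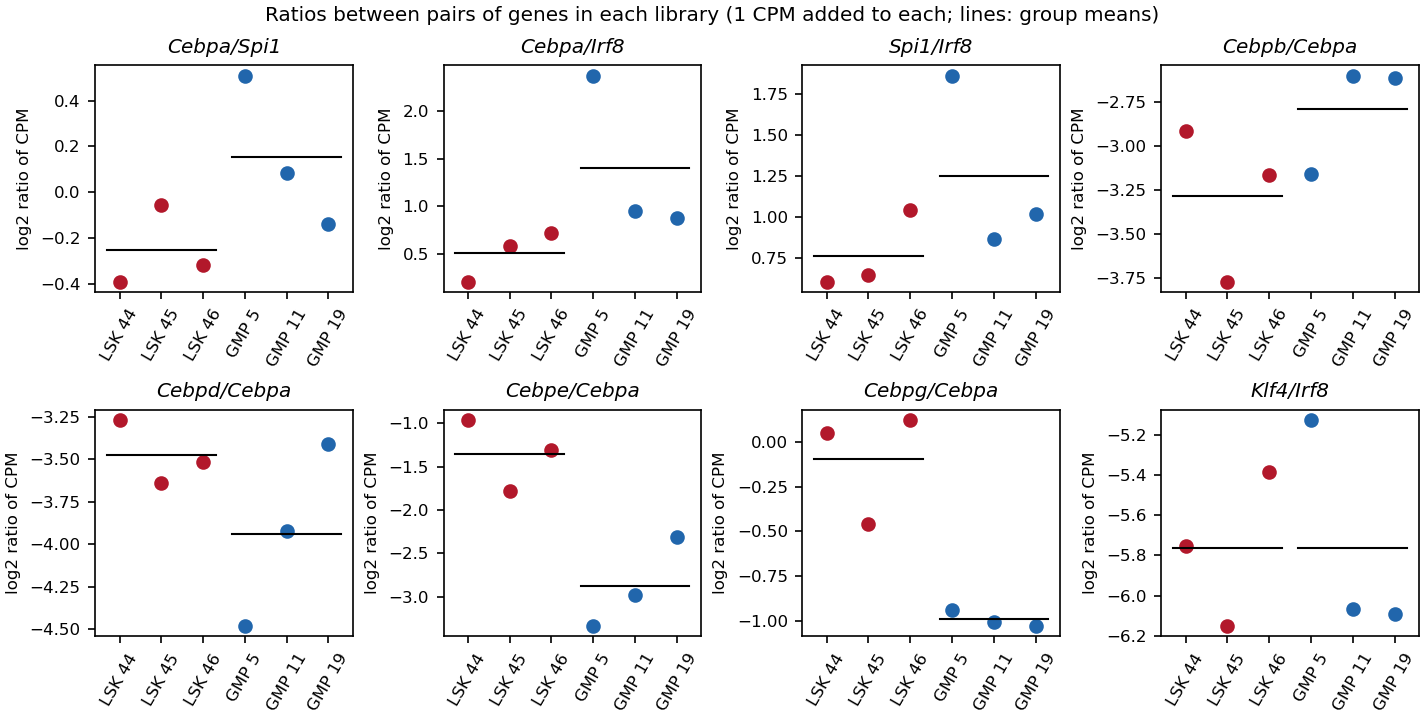
Log2 ratio of CPM (vertical axis, 1 CPM added to each gene) for 8 pairs of genes in each library (horizontal axis), LSK-derived in red and GMP-derived in blue, with lines at the group means. Cebpe to Cebpa and Cebpg to Cebpa lie higher in all 3 LSK-derived libraries, and GMP 5 has the highest Cebpa to Irf8 and Spi1 to Irf8 ratios.

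Genes beside the members on the chromosome, or overlapping them, were read for comparison. Pepd, a peptidase gene on the far side of Cebpg from Cebpa, measured 41.1 ± 1.07 CPM over the LSK-derived and 52.7 ± 6.56 CPM over the GMP-derived libraries. It was called lower (log2 fold change -0.36 ± 0.10, edgeR adjusted p = 0.0445), in 5 of 12 alternatives. Slc7a10, an amino acid transporter gene beyond Cebpa, had 0 counts in every library. Gm45095, which lies between Cebpg and Cebpa and overlaps exons of Cebpg, was not analysed here. Exons of Tmem189 overlap those of Cebpb on the opposite strand, and Tmem189 measured 50.4 ± 1.29 CPM over the LSK-derived and 64.7 ± 1.77 CPM over the GMP-derived libraries. It was called lower, as Cebpb was (log2 fold change -0.36 ± 0.06, edgeR adjusted p = 0.00928). Exons of 2310008H04Rik overlap those of Cebpd, and it measured 64.5 ± 4.92 CPM over the LSK-derived and 71.2 ± 5.36 CPM over the GMP-derived libraries, not called (edgeR adjusted p = 0.280). The strand setting of the counting was not stated, so reads of such a pair may have gone to either gene or to neither.

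For each tested member, the 2 genes with the most similar pattern over the 6 libraries were found among 9062 candidates, by the root mean square difference of centred log2 CPM. All genes share these 6 libraries, so likeness describes these libraries only. Nearest to Cebpa were Hexa, a lysosomal hexosaminidase gene (0.0598), and Grap, an adaptor gene (0.0630). Cebpb was followed most closely by the mevalonate kinase gene Mvk (0.123) and Sipa1l2 (0.132). Rdh12 (0.0917) and Dram1 (0.0933) were the nearest to Cebpd, and Asap1 (0.0999) and the talin gene Tln2 (0.186) to Cebpe. Zhx1 (0.0193) and Ccdc45 (0.0195) were the nearest to Cebpg, whose level hardly varied. Spi1 was matched by the proton pump subunit gene Atp6v0b (0.0533) and Dok3, an adaptor gene of immune cells (0.0547). Irf8 was matched by Abcd2, a peroxisomal transporter gene (0.139), and less closely by Nod1, a sensor of bacterial peptides (0.198). Abcd2 read 32.4, 46.5 and 22.7 CPM in LSK 44, 45 and 46 and 17.4, 44.9 and 54.7 CPM in GMP 5, 11 and 19. Like Irf8, it was lowest in GMP 5 and highest in GMP 19.

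Among C/EBP partners and regulators, 3 ATF genes and Batf were lower in the LSK-derived libraries. Of 12 tested genes of 15 listed, 2 rose, 4 fell and 6 did not pass, with a median log2 fold change of -0.21, and 50% were called, against 25.7% of all tested genes (11.8% higher and 13.9% lower). Atf3, a gene induced by many stresses, measured 0.546 ± 0.107 CPM over the LSK-derived and 2.33 ± 0.317 CPM over the GMP-derived libraries (log2 fold change -2.07 ± 0.26, edgeR adjusted p = 0.00270). Atf4, the effector of the integrated stress response, measured 491 ± 14.7 CPM over the LSK-derived and 673 ± 30.3 CPM over the GMP-derived libraries (log2 fold change -0.46 ± 0.06, edgeR adjusted p = 0.00384). Atf5 measured 40.1 ± 5.61 CPM over the LSK-derived and 83.4 ± 11.6 CPM over the GMP-derived libraries (log2 fold change -1.06 ± 0.14, edgeR adjusted p = 0.00326). The calls of these 3 held in all 12 alternatives. Hlf, of the related PAR class, read 15.5, 16.6 and 88.3 CPM in LSK 44, 45 and 46 and had 14 counts in all in the GMP-derived libraries. It was called higher (edgeR adjusted p = 0.00440), but not by limma voom with sample weights (adjusted p = 0.0719). Hlf passed the filter on low counts only through the LSK-derived libraries, where it was high, so its call is a description only. Batf and Trib1 were chosen after their values were seen. Batf measured 19.5 ± 0.926 CPM over the LSK-derived and 29.3 ± 3.08 CPM over the GMP-derived libraries (log2 fold change -0.59 ± 0.10, edgeR adjusted p = 0.00871). Trib1, whose protein brings C/EBP alpha to its degradation, read 1.94, 1.92 and 2.12 CPM in LSK 44, 45 and 46 and 0.738, 1.37 and 0.997 CPM in GMP 5, 11 and 19. It was higher in all 3 LSK-derived libraries at this low level (log2 fold change 0.94 ± 0.28, edgeR adjusted p = 0.0476) and called in 5 of 12 alternatives. The count of higher genes was 1 without any of GMP 5, GMP 19, LSK 44, LSK 45 or LSK 46, by limma voom with sample weights and with no filter.

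ETS genes other than Spi1 were called higher more than lower. Of 17 tested genes of 25 listed, 8 rose, 2 fell and 7 did not pass, with a median log2 fold change of 0.35, and 58.8% were called, against 25.7% of all tested genes (11.8% higher and 13.9% lower). Etv4, of the PEA3 group, read 26.2, 25.9 and 27.0 CPM in LSK 44, 45 and 46 and 0.369, 2.35 and 0.821 CPM in GMP 5, 11 and 19. Etv5, of the same group, read 33.0, 33.6 and 35.4 CPM in LSK 44, 45 and 46 and 2.83, 5.88 and 2.20 CPM in GMP 5, 11 and 19. Both were far higher in every LSK-derived library. The log2 fold change of Etv4 was 4.44 ± 0.57 (edgeR adjusted p = 0.00378) and that of Etv5 3.22 ± 0.36 (edgeR adjusted p = 0.00245). Etv6, a repressor needed by adult stem cells, measured 353 ± 9.89 CPM over the LSK-derived and 241 ± 3.56 CPM over the GMP-derived libraries (log2 fold change 0.55 ± 0.06, edgeR adjusted p = 0.00153). Erf, a repressor under ERK control, measured 11.02 ± 0.913 CPM over the LSK-derived and 5.21 ± 0.711 CPM over the GMP-derived libraries (log2 fold change 1.08 ± 0.16, edgeR adjusted p = 0.00476). Spib, the closest relative of Spi1, was chosen after its values were seen. It was low but called higher, at 1.65 ± 0.457 CPM over the LSK-derived and 0.358 ± 0.204 CPM over the GMP-derived libraries (log2 fold change 2.16 ± 0.43, edgeR adjusted p = 0.0133), in 11 of 12 alternatives. The count of lower ETS genes was 1 without GMP 19, LSK 44 or LSK 46 and 4 by limma voom with sample weights.

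IRF genes other than Irf8 were called at about the share of all tested genes, and the 2 called by edgeR were both lower. Of 8 tested genes of 8 listed, none rose, 2 fell and 6 did not pass, with a median log2 fold change of -0.31, and 25% were called, against 25.7% of all tested genes (11.8% higher and 13.9% lower). At an unadjusted p under 0.05, 0 were higher, and DESeq2 called 0 higher. Irf5, a factor of inflammatory macrophages, read 9.38, 9.22 and 9.33 CPM in LSK 44, 45 and 46 and 18.6, 22.3 and 33.2 CPM in GMP 5, 11 and 19. The LSK-derived values were nearly equal and below every GMP-derived one (log2 fold change -1.41 ± 0.21, edgeR adjusted p = 0.00517). The call of Irf5 held in all 12 alternatives.

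KLF genes other than Klf4 were called in both directions. Of 12 tested genes of 16 listed, 3 rose, 2 fell and 7 did not pass, with a median log2 fold change of -0.04, and 41.7% were called, against 25.7% of all tested genes (11.8% higher and 13.9% lower). Klf8 measured 8.39 ± 0.923 CPM over the LSK-derived and 1.57 ± 0.508 CPM over the GMP-derived libraries (log2 fold change 2.402 ± 0.27, edgeR adjusted p = 0.00183), a call that held in all 12 alternatives. Klf9 measured 44.1 ± 6.86 CPM over the LSK-derived and 29.1 ± 2.54 CPM over the GMP-derived libraries (log2 fold change 0.60 ± 0.13, edgeR adjusted p = 0.0183). Klf3 measured 5.66 ± 1.54 CPM over the LSK-derived and 13.5 ± 3.33 CPM over the GMP-derived libraries (log2 fold change -1.25 ± 0.25, edgeR adjusted p = 0.0138). Klf10, a gene induced by TGF-beta, measured 21.5 ± 2.06 CPM over the LSK-derived and 30.5 ± 2.06 CPM over the GMP-derived libraries (log2 fold change -0.50 ± 0.10, edgeR adjusted p = 0.0143). Without LSK 44 the edgeR adjusted p of Klf3 was 0.0559 and that of Klf10 0.0608, without LSK 46 that of Klf3 was 0.0573 and that of Klf9 0.0660, and without GMP 19 that of Klf9 was 0.0512. The count of lower KLF genes was 0 without LSK 44, 1 without LSK 46 and 4 without GMP 5, and that of higher ones 1 without LSK 46. DESeq2 and limma voom with sample weights each called 5 lower and 3 higher, more lower than higher.

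Upstream and partner factors of the members were called in both directions. Of 30 tested genes of 33 listed, 6 rose, 3 fell and 21 did not pass, with a median log2 fold change of 0.19, and 30% were called, against 25.7% of all tested genes (11.8% higher and 13.9% lower). Gfi1, a repressor that opposes PU.1 in granulocyte fate, read 117, 122 and 88.2 CPM in LSK 44, 45 and 46 and 171, 172 and 219 CPM in GMP 5, 11 and 19. All LSK-derived values were below all GMP-derived ones (log2 fold change -0.78 ± 0.15, edgeR adjusted p = 0.0129). Gfi1b, its erythroid and megakaryocyte relative, read 14.8, 7.10 and 32.5 CPM in LSK 44, 45 and 46 and had 14 counts in all in the GMP-derived libraries (edgeR adjusted p = 0.00375). Id1, an inhibitor of basic helix-loop-helix factors, measured 43.8 ± 1.15 CPM over the LSK-derived and 25.4 ± 3.75 CPM over the GMP-derived libraries (log2 fold change 0.79 ± 0.12, edgeR adjusted p = 0.00467). Stat5b, a mediator of cytokine signals, measured 104 ± 5.32 CPM over the LSK-derived and 70.5 ± 6.48 CPM over the GMP-derived libraries (log2 fold change 0.57 ± 0.09, edgeR adjusted p = 0.00518). Nab2, a corepressor of EGR factors, measured 3.61 ± 1.52 CPM over the LSK-derived and 0.564 ± 0.349 CPM over the GMP-derived libraries (log2 fold change 2.65 ± 0.50, edgeR adjusted p = 0.0107). The calls of these 5 held in all 12 alternatives. Gfi1b passed the filter on low counts only through the LSK-derived libraries, where it was high, so its call is a description only. Runx1, which acts on the Spi1 upstream enhancer, was chosen after its values were seen. It read 55.4, 79.6 and 52.3 CPM in LSK 44, 45 and 46 and 23.1, 49.8 and 58.9 CPM in GMP 5, 11 and 19. Like Irf8, it was lowest in GMP 5, and it was not called (log2 fold change 0.50 ± 0.35, edgeR adjusted p = 0.335). The count of lower genes in this list was 1 without any of GMP 11, GMP 19, LSK 44 or LSK 46 and 5 by limma voom with sample weights, and DESeq2 called 10 higher.

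Genes of the PU.1 programme were called lower but not higher by edgeR. Of 33 tested genes of 34 listed, none rose, 11 fell and 22 did not pass, with a median log2 fold change of -0.44, and 33.3% were called, against 25.7% of all tested genes (11.8% higher and 13.9% lower). At an unadjusted p under 0.05, 0 were higher, and DESeq2 called 1 higher. Itgb2, the common chain of the beta-2 integrins, read 143, 139 and 115 CPM in LSK 44, 45 and 46 and 435, 405 and 566 CPM in GMP 5, 11 and 19. The groups were far apart (log2 fold change -1.83 ± 0.15, edgeR adjusted p = 0.000699). Fcgr3, an IgG receptor gene, measured 33.7 ± 14.1 CPM over the LSK-derived and 163 ± 11.2 CPM over the GMP-derived libraries (log2 fold change -2.27 ± 0.29, edgeR adjusted p = 0.00364). Fcer1g, the signalling chain of Fc receptors, measured 97.5 ± 14.2 CPM over the LSK-derived and 238 ± 20.0 CPM over the GMP-derived libraries (log2 fold change -1.29 ± 0.12, edgeR adjusted p = 0.00108). Csf2rb, the common chain of the IL-3 and GM-CSF receptors, measured 202 ± 45.96 CPM over the LSK-derived and 421 ± 27.0 CPM over the GMP-derived libraries (log2 fold change -1.06 ± 0.16, edgeR adjusted p = 0.00498). The calls of these 4 held in all 12 alternatives, while the count of lower genes was 6 without LSK 44 and 5 without LSK 46. Csf1r, the macrophage receptor gene and a textbook PU.1 target, was chosen after its values were seen. It read 10.6, 21.9 and 4.96 CPM in LSK 44, 45 and 46 and 2.70, 14.2 and 28.3 CPM in GMP 5, 11 and 19. The groups overlapped, and it was not called (log2 fold change -0.27 ± 0.85, edgeR adjusted p = 0.842).

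Granulocyte genes of the C/EBP programme were called mostly lower, with counts that depended on single libraries. Of 21 tested genes of 29 listed, 1 rose, 6 fell and 14 did not pass, with a median log2 fold change of -0.78, and 33.3% were called, against 25.7% of all tested genes (11.8% higher and 13.9% lower). Besides Gfi1, described above, Csf3r, the G-CSF receptor gene, measured 19.7 ± 2.14 CPM over the LSK-derived and 33.0 ± 7.86 CPM over the GMP-derived libraries (log2 fold change -0.74 ± 0.18, edgeR adjusted p = 0.0241). Ctsg, the cathepsin G gene, measured 1308 ± 257 CPM over the LSK-derived and 1994 ± 125 CPM over the GMP-derived libraries (log2 fold change -0.61 ± 0.14, edgeR adjusted p = 0.0234). Anxa1, the gene of the list that rose, measured 26.8 ± 3.89 CPM over the LSK-derived and 15.6 ± 3.999 CPM over the GMP-derived libraries (log2 fold change 0.78 ± 0.20, edgeR adjusted p = 0.0315). Csf3r was not called without LSK 44 or LSK 46 (edgeR adjusted p up to 0.0892), Ctsg without GMP 5, GMP 11, GMP 19 or LSK 44 (up to 0.0769), and Anxa1 without GMP 5, GMP 11, LSK 45 or LSK 46 (up to 0.103). The count of lower genes was 12 without GMP 5, 3 without LSK 45, 2 without GMP 11, GMP 19 or LSK 46 and 1 without LSK 44, and 3 by limma voom or with no filter, and that of higher ones 0 without GMP 11, LSK 45 or LSK 46 and 2 by DESeq2. Neutrophil markers (11 listed, 8 tested, 1 called higher and 2 lower) summed to 52.4 to 183 CPM in LSK-derived and 20.0 to 585 CPM in GMP-derived libraries. GMP 5 was the lowest and GMP 19 the highest of the 6. Different genes made up these sums, as seen from their values. Mmp8 was most of each LSK-derived sum, at 101, 173 and 40.9 CPM in LSK 44, 45 and 46. S100a8, S100a9 and Ngp read 192, 195 and 130 CPM in GMP 19 and at most 6.17 CPM in LSK-derived libraries. The part of these markers in the result was not tested.

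Monocyte and dendritic genes of the IRF8 and KLF4 programme were called in both directions. Of 34 tested genes of 39 listed, 7 rose, 3 fell and 24 did not pass, with a median log2 fold change of 0.24, and 29.4% were called, against 25.7% of all tested genes (11.8% higher and 13.9% lower). The called genes with the smallest p included 3 of class II antigen presentation, all at low levels, while H2-Ab1 and Cd74, chosen after their values were seen, were not called. Ciita, the class II transactivator, measured 0.788 ± 0.318 CPM over the LSK-derived libraries and had 5 counts in all in the GMP-derived ones (edgeR adjusted p = 0.00385). Ciita passed the filter on low counts only through the LSK-derived libraries, so its call is a description only. H2-Aa, a class II chain, measured 3.89 ± 0.895 CPM over the LSK-derived and 0.576 ± 0.225 CPM over the GMP-derived libraries (log2 fold change 2.75 ± 0.36, edgeR adjusted p = 0.00311). H2-Eb1 measured 1.47 ± 0.354 CPM over the LSK-derived and 0.445 ± 0.0859 CPM over the GMP-derived libraries (log2 fold change 1.70 ± 0.30, edgeR adjusted p = 0.00884). H2-Ab1, the partner chain of H2-Aa, read 3.02, 6.91 and 1.75 CPM in LSK 44, 45 and 46 and 7.46, 5.37 and 8.80 CPM in GMP 5, 11 and 19. The groups overlapped (log2 fold change -0.88 ± 0.49, edgeR adjusted p = 0.234). Cd74, the invariant chain of class II molecules, measured 19.6 ± 6.17 CPM over the LSK-derived and 5.65 ± 4.20 CPM over the GMP-derived libraries (log2 fold change 1.78 ± 0.64, edgeR adjusted p = 0.0870). Dendritic cell markers (10 listed, 6 tested) summed to 68.4 to 104 CPM in LSK-derived and 18.6 to 40.1 CPM in GMP-derived libraries, with Batf3 at 0. Flt3 was the largest part of each LSK-derived sum, at 41.6, 58.6 and 44.9 CPM in LSK 44, 45 and 46. Xcr1, Clec9a and Zbtb46 were at most 0.392 CPM in any library, and H2-Ab1, also on the list, had the lower mean in the LSK-derived libraries. Monocyte and macrophage markers (11 listed, 7 tested) summed to 821 to 2111 CPM in LSK-derived and 589 to 1752 CPM in GMP-derived libraries, and the part of either list in the result was not tested. The count of lower genes was 1 without LSK 44, 5 without GMP 5 and 5 by limma voom with sample weights. In the reference annotation, exons of Atf5, Etv6, Gfi1, Irf5, Nab2, Csf1r and Ciita overlap those of another gene in the table, so reads may have gone to either or to neither.

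**Figure D4:**
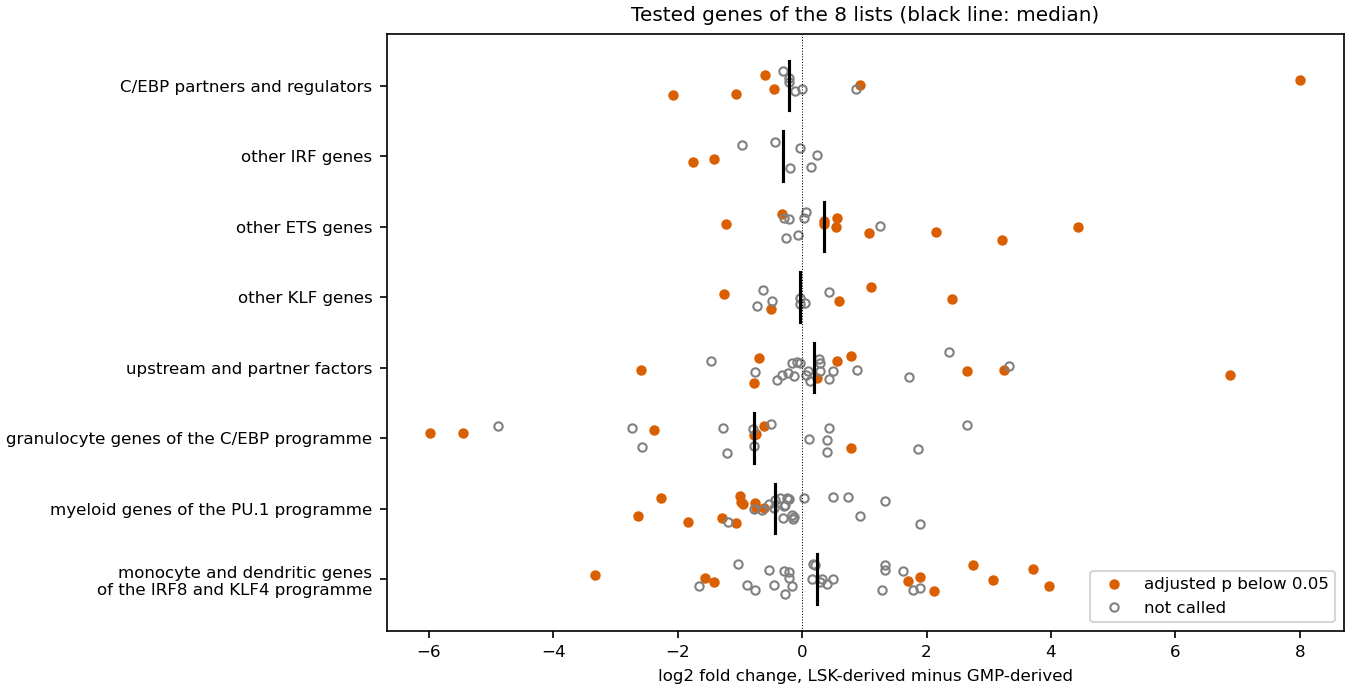
Log2 fold change (horizontal axis, LSK-derived minus GMP-derived) of every tested gene of the 8 lists (vertical axis), filled where the edgeR adjusted p was below 0.05 and open where not, with the list median as a black line. The PU.1 programme has 11 filled points, all left of 0, while the ETS genes have 8 filled points to the right and 2 to the left.

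The libraries of one group also differed among themselves in these lists. For each list, the median over its tested genes of log2 CPM minus the gene's mean over the 6 libraries gave 1 value for each library, as a description. For the IRF8 and KLF4 programme it was 0.16, 0.48 and -0.18 in LSK 44, 45 and 46 and -0.89, 0.07 and 0.26 in GMP 5, 11 and 19. GMP 5, the library with the least Irf8, was the lowest, and LSK 46, with the least Irf8 of its group, was the lowest of the LSK-derived ones. LSK 46 was the lowest of its group for the C/EBP and PU.1 programmes below as well. The highest was LSK 45, whose Irf8, at 84.1 CPM, was below the 88.0 CPM of GMP 11 and the 99.3 CPM of GMP 19. The granulocyte genes of the C/EBP programme stood at -0.26, -0.05 and -0.56 in LSK 44, 45 and 46 and -0.68, 0.35 and 0.96 in GMP 5, 11 and 19. GMP 5 was again the lowest, and its Cebpa read 179.6 CPM, against 171 CPM in GMP 11 and 184 CPM in GMP 19. For the PU.1 programme the values were -0.25, 0.05 and -0.41 in LSK 44, 45 and 46 and 0.02, 0.12 and 0.62 in GMP 5, 11 and 19. GMP 19, which had the most Spi1, was the highest, and it was the highest GMP-derived library for the other programmes too. Whether the level of a programme followed that of its factor was not tested. Mast cell and basophil markers (9 listed, 4 tested) summed to 102, 95.6 and 147 CPM in LSK 44, 45 and 46 and 153, 31.9 and 27.4 CPM in GMP 5, 11 and 19, with Mcpt4 at 0. The largest parts of the sum in GMP 5 were Cpa3 and Gata2, both chosen after their values were seen. Gata2 read 64.5, 60.1 and 108 CPM in LSK 44, 45 and 46 and 45.6, 13.8 and 12.0 CPM in GMP 5, 11 and 19. Cpa3, a mast cell protease gene, read 1.69, 0.157 and 2.87 CPM in LSK 44, 45 and 46 and 88.5, 0.683 and 0.968 CPM in GMP 5, 11 and 19. Mcpt8, a basophil protease gene, read 30.8, 31.6 and 29.4 CPM in LSK 44, 45 and 46 and 14.6, 13.9 and 10.9 CPM in GMP 5, 11 and 19, so GMP 5 was below every LSK-derived library for it. Erythroid and megakaryocyte markers (12 listed, 6 tested) summed to 25.6 to 202 CPM in LSK-derived and 2.17 to 13.5 CPM in GMP-derived libraries. The part of these markers in the levels of the members was not tested.

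**Figure D5:**
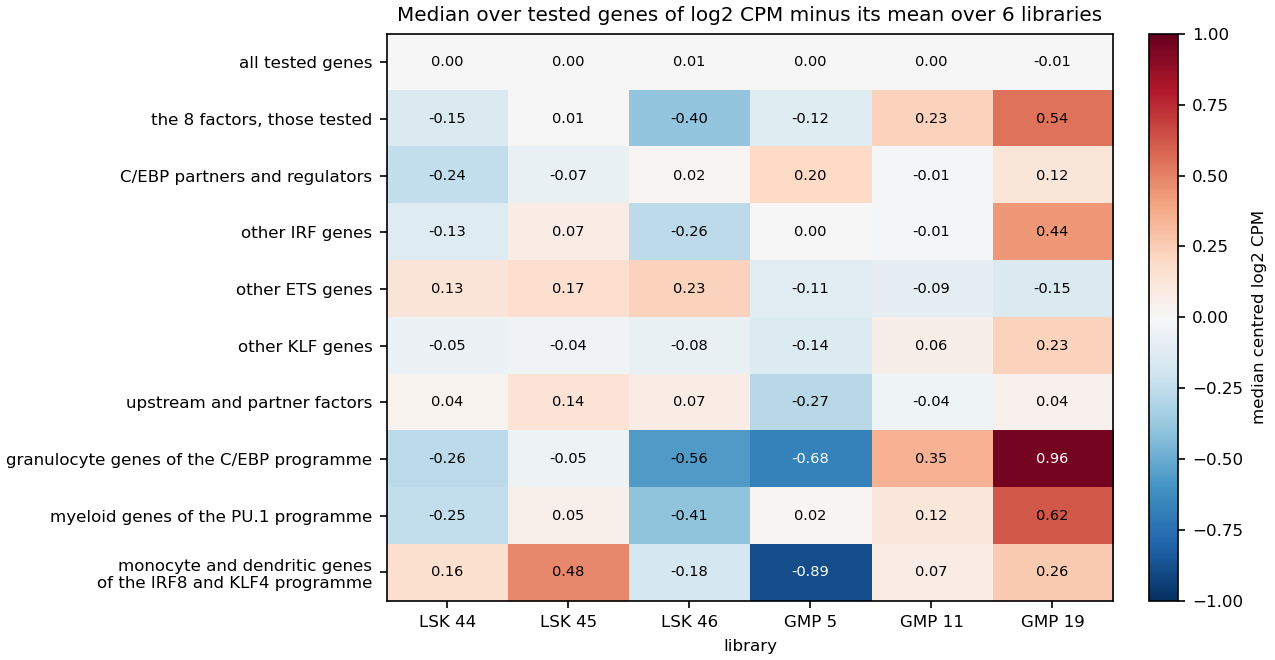
Median over the tested genes of each list (vertical axis) of log2 CPM minus the gene's mean over the 6 libraries (colour and printed value), by library (horizontal axis). GMP 5 is the lowest library for the IRF8 and KLF4 programme (-0.89) and for the granulocyte genes (-0.68), and GMP 19 the highest for the granulocyte genes (0.96).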

How the data were processed

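The authors deposited raw counts of reads per gene symbol, 1 column for each library, with no normalization. Per the labels' protocols, TRIzol RNA went into TruSeq libraries. Per the submitters' processing notes, the tools were STAR 2.4, HTSeq 0.6.1 and DESeq2 and the build was mm9. The annotation, the strand setting and what each tool did were not given in the sources used here.

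Counts passing filterByExpr were scaled by TMM and tested in edgeR 4.0.16 under R 4.3.3 (glmQLFit, robust, then glmQLFTest, no covariate), adjusting over 13406 genes by Benjamini-Hochberg. A gene too low in either group could pass the filter through the other group alone. The approximate SE is |log2 fold change| over the root of F. Replicate libraries varied beyond sampling noise (chi-square over its degrees of freedom 9.70 or more). Transcript lengths and exon overlaps came from GENCODE M21, and symbols, gene order and upstream windows (5 of 8 members; Cebpd, Cebpe and Spi1 not analysed there) from RefSeq on GRCm38.p6.

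Alternatives were RLE and upper-quartile scaling, no filter, DESeq2 1.42.0, limma 3.58.1 voom without and with sample weights, and leaving out each library. The edgeR step was tested on simulated counts. Members, gene lists and marker lists were chosen with earlier results of these data known. Named were all members, up to 4 called genes of each list by smallest p, the 2 genes most like each tested member and the chromosome neighbours. Overlapping genes and those marked in the text were added after their values were seen. A gene that this rule names is not reported here.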

Additional observations from a re-analysis of the deposited data

How the results depend on the processing

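The calls of Cebpa and Cebpb held in all 12 alternatives, with log2 fold changes from -1.04 to -0.72 and from -1.62 to -1.33. Limma voom with sample weights called 4 members in place of 2, adding Cebpe (0.74) and Spi1 (-0.49), and DESeq2 added Spi1 (-0.47). Leaving out single libraries gave 2 to 3 called members, 1750 (without LSK 46; 1830 without LSK 44) to 3467 called genes against 3444, and log2 fold changes of 0.41 to 1.02 for Cebpe and -0.63 to -0.28 for Spi1. The fold change of Irf8 was 0.0183 with limma voom and ran from -0.42 to 0.21 without single libraries, those of Rdh12 from -0.70 to 0.0380, of Abcd2 from -0.56 to 0.12 and of Nod1 from -0.22 to 0.43. The cause was not tested. The log2 difference of Klf4 to Irf8, near 0, was 0.34 with 0.1 CPM added in place of 1 and ran from -0.19 to 0.32 without single libraries. Depth limited Klf4, with 18 counts in LSK-derived and 27 in GMP-derived libraries. No paired analysis was possible because the library numbers in the titles are not shared between the groups. The scaling alternative for ratios was not run.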

Other observations

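Mpo, Elane and Mef2c were chosen after their values were seen. Mpo, the myeloperoxidase gene and a known C/EBP alpha target, read 1415, 795 and 819 CPM in LSK 44, 45 and 46 and 13.8, 316 and 500.3 CPM in GMP 5, 11 and 19. Every LSK-derived value was above every GMP-derived one, while Cebpa was lower in the LSK-derived libraries. Mpo was not called (log2 fold change 1.87 ± 1.06, edgeR adjusted p = 0.247) but was in 1 of 12 alternatives, and its exons overlap those of Gm11505. Elane, the neutrophil elastase gene, read 733, 672 and 328 CPM in LSK 44, 45 and 46 and 65.5, 815 and 1562 CPM in GMP 5, 11 and 19. GMP 5 was the lowest and GMP 19 the highest, and Elane was not called (log2 fold change -0.50 ± 0.97, edgeR adjusted p = 0.744). Mef2c, a factor active with IRF8 in lymphoid and monocyte fate, read 583, 629 and 554 CPM in LSK 44, 45 and 46 and 55.7, 223 and 128 CPM in GMP 5, 11 and 19. The groups were apart and Mef2c was called higher (log2 fold change 2.12 ± 0.46, edgeR adjusted p = 0.0204), in 7 of 12 alternatives.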
